A study of Mus musculus with 2 samples.

Results

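The genes described here encode the working parts of the lysosome: proteins of its membrane, the hydrolases of its lumen with their helper proteins, the regulator Tfeb, and the subunits of the V-ATPase that acidifies it. They were taken by name from the deposited table of 23337 gene symbols, and all 38 were found there. They fell into 8 membrane proteins, 9 hydrolases, 3 luminal cofactors that are not hydrolases, 1 transcription factor and 17 V-ATPase genes. RNA had been sequenced from regulatory T (Treg) cells, a Foxp3-positive subset of CD4 T cells known for holding immune responses in check, sorted from the injured skeletal muscle of mice given recombinant IL-33 or PBS. The question set by the design was how added IL-33 bears on the transcriptome of these cells.

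The IL-33 library came from muscles injected with cardiotoxin, a toxin that destroys muscle fibres, together with 0.3 ug of recombinant IL-33, a cytokine released by damaged tissue. The other library came from muscles injected with cardiotoxin and PBS. Both groups were 8-week-old male mice on the Foxp3-IRES-GFP/C57BL/6 background, in which green fluorescence reports Foxp3 transcription, and both were injured, so neither shows resting muscle. Treg cells were taken 4 days after injury from the tibialis anterior, quadriceps and gastrocnemius muscles, 5000 per library, and whether they came from 1 animal or several is not given in the sources used here. Each group had 1 library, so no difference below has a replicate check or a p-value, and "higher" and "lower" compare the 2 libraries.

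The IL-33 library held 4080791 counts and the PBS library 1573707, so a given level rests on fewer counts with PBS. Levels are CPM, counts scaled to the same library total, and below "with IL-33" and "with PBS" name the 2 libraries. A count of 0 allowed up to 0.735 CPM with IL-33 and 1.91 CPM with PBS (3 counts). The 8 T cell and Treg markers summed to 11408 CPM with IL-33 and 11529 CPM with PBS, for a ratio of 0.990 (0.973 to 1.01). Among them Cd4 and Ctla4 did not differ beyond counting error. Cd3d (ratio 1.26) and Cd3g (1.15) were higher with IL-33, and Il2ra (0.721) and Ikzf2 (0.873) lower. Foxp3 itself was thinly counted, with 40 and 1 counts. It was higher with IL-33, for a ratio of 15.4 (2.61 to 624), the only one of the 8 past 2-fold. Of the macrophage and monocyte markers, whose cells are rich in lysosomes, Cd68 was at 0 in both libraries and Csf1r had 1 count in each. The 12 macrophage and monocyte markers in the table summed to 2939 CPM with IL-33 and 2044 CPM with PBS, nearly all of it Ccr2, which T cells also express; without Ccr2, left out after its values were seen, the other 11 summed to 53.2 and 56.6 CPM. Their ratio was 0.940 (95% counting interval 0.731 to 1.22). Within these 11, Lyz2 was lower with IL-33, with 78 and 61 counts, for a ratio of 0.493 (0.348 to 0.701). Itgam was higher, with 66 and 12 counts, for a ratio of 2.12 (1.14 to 4.31), and Mrc1 had 17 and 0 counts. The 8 dendritic cell markers summed to 16.4 CPM with IL-33 and 31.8 CPM with PBS, with Flt3, Clec9a, Cd209a and Cd74 at 0 in both. The others went both ways: Itgax had 0 and 19 counts and H2-Ab1 7 and 19, while Xcr1 had 42 and 12 and Zbtb46 18 and 0. B cell markers summed to 32.3 and 26.7 CPM with IL-33 and PBS, and endothelial markers to 49.3 and 52.1 CPM. Neutrophil markers summed to 4.41 and 5.72 CPM and muscle markers to 0.245 and 1.91 CPM. The 6 fibroblast markers summed to 0 CPM and 66.1 CPM, with Col1a1, Col1a2 and Lum at 0 in both, Col3a1 at 0 and 78 counts and Dcn at 0 and 24 counts. The part of these traces of other cells in the results below was not tested. In bulk RNA, fewer cells of a type and less RNA per cell cannot be told apart.

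Lysosomes break down material brought by endocytosis and autophagy. The V-ATPase pumps protons into them: its V1 sector hydrolyses ATP in the cytosol, and its V0 sector carries the protons through the membrane. Most hydrolases reach the lysosome by a mannose 6-phosphate tag, and heavily glycosylated membrane proteins line it from within. The transcription factor TFEB and its relatives are known to bind E-box sequences, the CLEAR element, near many lysosomal genes. In Treg cells the lysosome is known as a place where internalised CTLA-4 is degraded.

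The E-box core is shown because it is the one feature of sequence known to tie many of these genes together. Promoters, the 250 bases before to 50 bases after each RefSeq start in GRCm38.p6, were found by symbol for 31 of the 38 genes, 37 promoters in all. The core CACGTG, searched on both strands (it reads the same on each), lay in 8 of the 37 promoters (21.6%), each of another gene, against 7.15% of the 32851 promoters in the table. The longer TCACGTGA, which contains the core, lay in 4 of 37, against 0.974% of all promoters, and the full CLEAR palindrome, which adds a G before and a C after the longer form, lay in 0 of 37, against 0.326%. The genes with the core were Mcoln1, Lamp1, Glb1, Gaa, Atp6v1a, Atp6v0b, Atp6v0d1 and Atp6v0e. Lamp1 held it 4 times, Mcoln1 and Atp6v0b each more than once. The core was not particular to these genes. In lists of related genes described below, it lay in 7 of 11 promoters for mannose 6-phosphate sorting and 5 of 12 for cathepsins. It lay in 3 of 13 for further V-ATPase genes and 4 of 19 for TFEB and mTORC1 control. For further hydrolases it lay in 4 of 21 and for further membrane proteins in 3 of 24. A match describes these letters only and shows no binding. One window of 30 bases follows for 6 of the genes, read 5′ to 3′ on the strand of the gene with the core in capitals. The first 4 hold the longer TCACGTGA.
Mcoln1, chr8:3500462-3500491, plus strand: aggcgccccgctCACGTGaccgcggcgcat
Atp6v0d1, chr8:105566050-105566079, minus strand: ccctactgcggtCACGTGagacgcggtgcg
Atp6v0e, chr17:26676387-26676416, plus strand: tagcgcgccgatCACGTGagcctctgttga
Atp6v1a, chr16:44139373-44139402, minus strand: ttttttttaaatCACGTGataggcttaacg
Glb1, chr9:114401018-114401047, plus strand: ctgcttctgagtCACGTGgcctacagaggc
Atp6v0b, chr4:117887348-117887377, minus strand: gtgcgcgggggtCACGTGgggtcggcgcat
The core began 45 bases before the start in the Mcoln1 window, 3 before in Atp6v0d1, 131 before in Atp6v1a, 48 before in Glb1 and 36 before in Atp6v0b, and 3 bases after the start in Atp6v0e.

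As a set, the lysosome genes stood at nearly the same level in both libraries. Their counts summed to 4025 CPM with IL-33 and 3984 CPM with PBS, for a ratio of 1.01 (95% counting interval 0.981 to 1.04), or 1.10 with TMM scaling in place of library totals. This interval and all others below are exact conditional intervals that cover counting error only. They treat reads as independent, which amplified reads are not, so they may be too narrow. Beneath the even total, the summed hydrolases were somewhat lower with IL-33, Atp6v0e and Atp6v0b of the V-ATPase V0 sector were higher, and a few genes differed far more. Of the 38 genes, 34 reached 5 CPM in a library, and 29 of these reached it in both. Cd63, Gaa, Tfeb and Atp6v0c stayed under this floor. Folds are given as log2 of IL-33 over PBS on CPM plus 1, a scale that understates the differences of low genes. By that fold, 3 of the 34 were at least 2-fold higher with IL-33 (Asah1, Atp6v0a1 and Atp6v0b), against a background of 15.5% of the 9005 genes over the floor, and 3 were at least 2-fold lower (Atp6v1g2, Mcoln1 and Hexa), against 16.3%. These counts lie below that background, which is not matched for level, so no trait of these genes is read from them. Among the 9005 genes, the share past 2-fold either way fell from 68.5% under a mean of 10 CPM to 2.22% from 200 CPM. Of the 6 genes, only Atp6v0b was over the floor in both libraries; the other 5 passed it through the library where they were high and so had to differ. Among genes over the floor in both libraries, 7.71% were 2-fold higher and 10.5% 2-fold lower. The median log2 fold was -0.06 over the 34 genes and -0.05 over the 29, beside -0.08 and -0.09 over all genes passing the same floors.

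**Figure D1:**
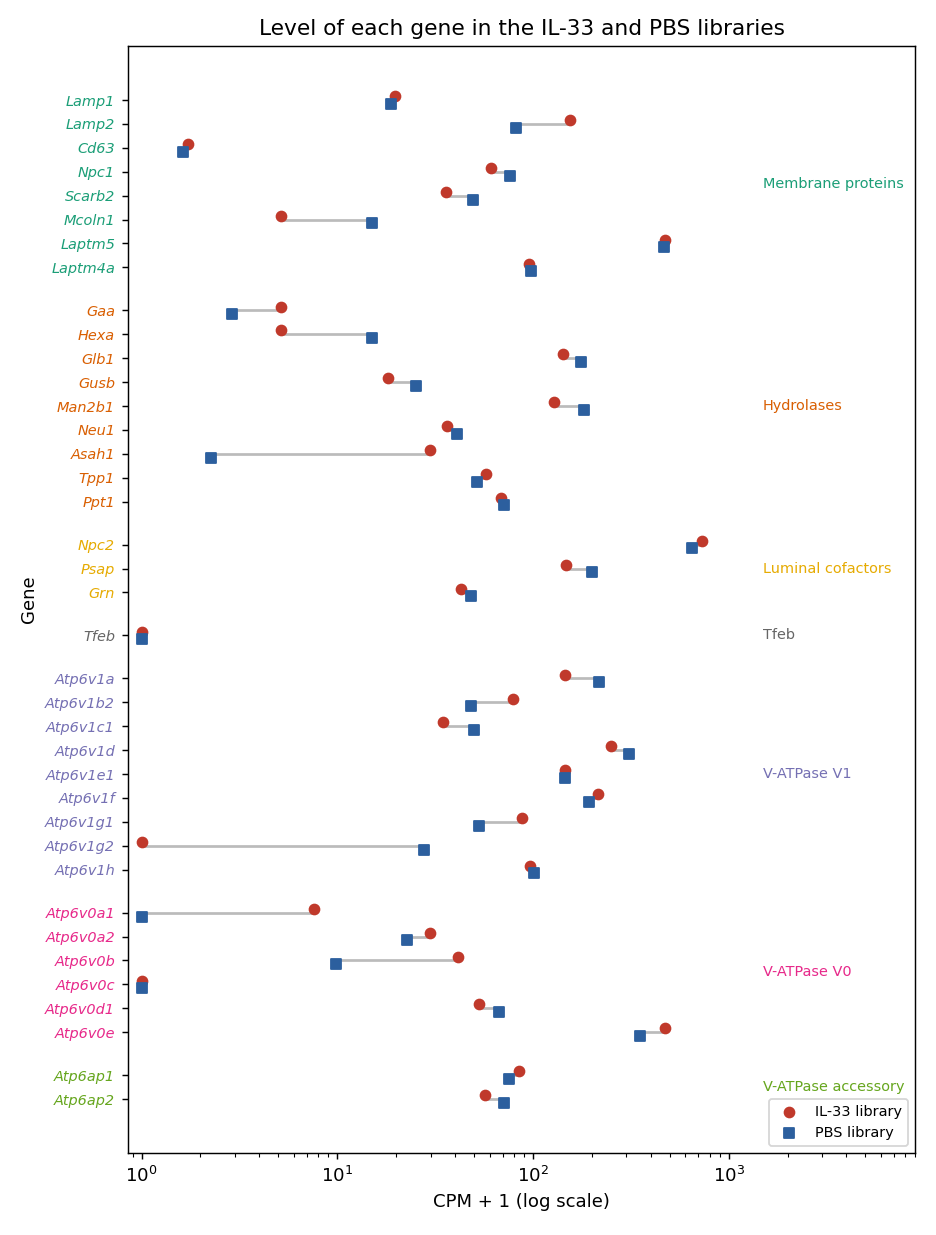
Level of all 38 genes in CPM + 1 (log axis), with the IL-33 library as circles and the PBS library as squares, grouped and coloured by role; a gene at 1 on the axis had 0 counts. Most pairs lie close together, while Asah1, Atp6v0b and Atp6v0a1 lie higher with IL-33, and Atp6v1g2, Mcoln1 and Hexa lower.

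Membrane proteins were led by Laptm5, a transmembrane protein of lysosomes in blood cells that is known to direct the T cell receptor to degradation. It had 1932 and 735 counts with IL-33 and PBS, which is 473 CPM against 467 CPM, for a ratio of 1.01 (0.931 to 1.11). Its relative Laptm4a, expressed in most tissues, stood at 94.6 CPM with IL-33 and 97.2 CPM with PBS. By library totals neither differed beyond counting error, while TMM scaling takes Laptm5 to 1.10 (1.01 to 1.20). Laptm5 made up 83.3% of the counts of this pair with IL-33 (exact binomial interval 81.8 to 84.8) and 82.8% with PBS (80.1 to 85.2). Per length, Laptm5 was at 182 and 180 CPM per kb and Laptm4a at 53.4 and 54.8 CPM per kb.

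The LAMP glycoproteins, which form the inner coat of the lysosomal membrane, differed from each other. Lamp2 (chromosome X, 38401357 to 38456454 in GRCm38) had 629 counts with IL-33 and 127 with PBS, 154 CPM against 80.7 CPM, for a ratio of 1.91 (1.58 to 2.33). Its log2 fold of 0.93 was just short of 2-fold and became 1.05 with TMM scaling, which passes it. Lamp1 had 76 and 28 counts, 18.6 CPM against 17.8 CPM, for a ratio of 1.05 (0.671 to 1.68). Lamp2 was the larger of the pair per length in both libraries, with 70.6 and 37.0 CPM per kb against 8.36 and 7.98 CPM per kb for Lamp1. Its share of the counts of the pair was 89.2% (86.7 to 91.4) with IL-33 and 81.9% (75.0 to 87.6) with PBS, and these binomial intervals overlap.

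Other membrane proteins were lower with IL-33 or did not differ beyond counting error. Npc1, which carries cholesterol out of the lysosome, stood at 60.0 CPM with IL-33 and 75.0 CPM with PBS, for a ratio of 0.801 (0.640 to 1.01). Scarb2, the receptor that brings glucocerebrosidase to the lysosome, stood at 34.8 and 48.3 CPM, for a ratio of 0.721 (0.542 to 0.965), or 0.784 (0.589 to 1.05) with TMM scaling. Mcoln1, a calcium channel of the lysosome that acts upstream of TFEB, had 17 counts with IL-33 and 22 with PBS, 4.17 CPM against 14.0 CPM. Its ratio of 0.298 (0.149 to 0.588) was the lowest of the membrane class, on few counts. Among all genes with a mean under 10 CPM and over the floor, as for Mcoln1, 68.5% differed 2-fold either way. The tetraspanin Cd63, a common marker of late endosomes, had 3 counts with IL-33 and 1 with PBS, both within the limit that a count of 0 allows. Of the 25-base words in the longest Cd63 transcript, 51.7% also occurred in its pseudogene Cd63-ps, which has no row in the table, so its level is uncertain.

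Hydrolases were lower as a sum with IL-33, with 1970 counts there and 880 with PBS, 483 CPM against 559 CPM, for a ratio of 0.863 (0.797 to 0.936). With TMM scaling it was 0.939 (0.867 to 1.02), an interval that holds 1. The 2 largest, Glb1 and Man2b1, were both lower. Glb1, the lysosomal beta-galactosidase, had 579 and 276 counts, 142 CPM against 175 CPM, for a ratio of 0.809 (0.700 to 0.937). Man2b1, the lysosomal alpha-mannosidase (chromosome 8, 85083270 to 85098282), had 519 and 286 counts, 127 CPM against 182 CPM, for a ratio of 0.700 (0.605 to 0.811). By library totals both differences were larger than counting error and smaller than 2-fold, but with TMM scaling the interval of Glb1, 0.761 to 1.02, holds 1. Between a mean of 50 and 200 CPM, 10.9% of all genes differed by 2-fold or more. Without Glb1 the remaining hydrolases summed to a ratio of 0.888 (0.807 to 0.979), and without Man2b1 to 0.942 (0.856 to 1.04), which holds 1.

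Most other hydrolases did not differ beyond counting error. Ppt1, which removes fatty acids from proteins, stood at 67.4 CPM with IL-33 and 69.9 CPM with PBS. Tpp1, a tripeptidyl peptidase, stood at 56.4 and 50.8 CPM. Neu1, a sialidase, stood at 35.5 and 40.0 CPM. The intervals of all 3 ratios held 1. Gusb, the beta-glucuronidase, had 70 and 38 counts and a ratio of 0.710 (0.472 to 1.08), and Gaa, the acid alpha-glucosidase, had 17 and 3 counts and a ratio of 2.19 (0.632 to 11.6).

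The hydrolases that differed most were thinly counted in 1 or both libraries. Asah1, the acid ceramidase that splits ceramide into sphingosine and fatty acid (chromosome 8, 41340197 to 41374773), had 118 counts with IL-33 and 2 with PBS. This is 28.9 CPM against 1.27 CPM, for a ratio of 22.8 (6.16 to 190). It was the highest ratio among the genes with counts in both libraries, and 0.0% of its 25-base words occurred in other annotated transcripts. Hexa, the alpha subunit of beta-hexosaminidase, had 17 and 22 counts, 4.17 CPM against 14.0 CPM, for a ratio of 0.298 (0.149 to 0.588). Among all genes with a mean of 10 to 50 CPM, where Asah1 lies, 35.3% differed 2-fold either way.

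The luminal cofactors held the most abundant gene of all 38 by count. Npc2, the soluble sterol carrier that hands cholesterol to Npc1, had 2983 counts with IL-33 and 1018 with PBS, 731 CPM against 647 CPM, for a ratio of 1.13 (1.05 to 1.21). Above a mean of 200 CPM, where it lies, 2.22% of all genes differed 2-fold either way. Psap, the precursor of the saposins that present sphingolipids to hydrolases, went the other way, at 147 CPM against 199 CPM, for a ratio of 0.737 (0.642 to 0.847). Grn, which encodes progranulin, stood at 41.7 and 47.0 CPM, for a ratio of 0.886 (0.670 to 1.18). The 3 summed to a ratio of 1.03 (0.968 to 1.10), and without Npc2 the other 2 summed to 0.765 (0.676 to 0.867).

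**Figure D2:**
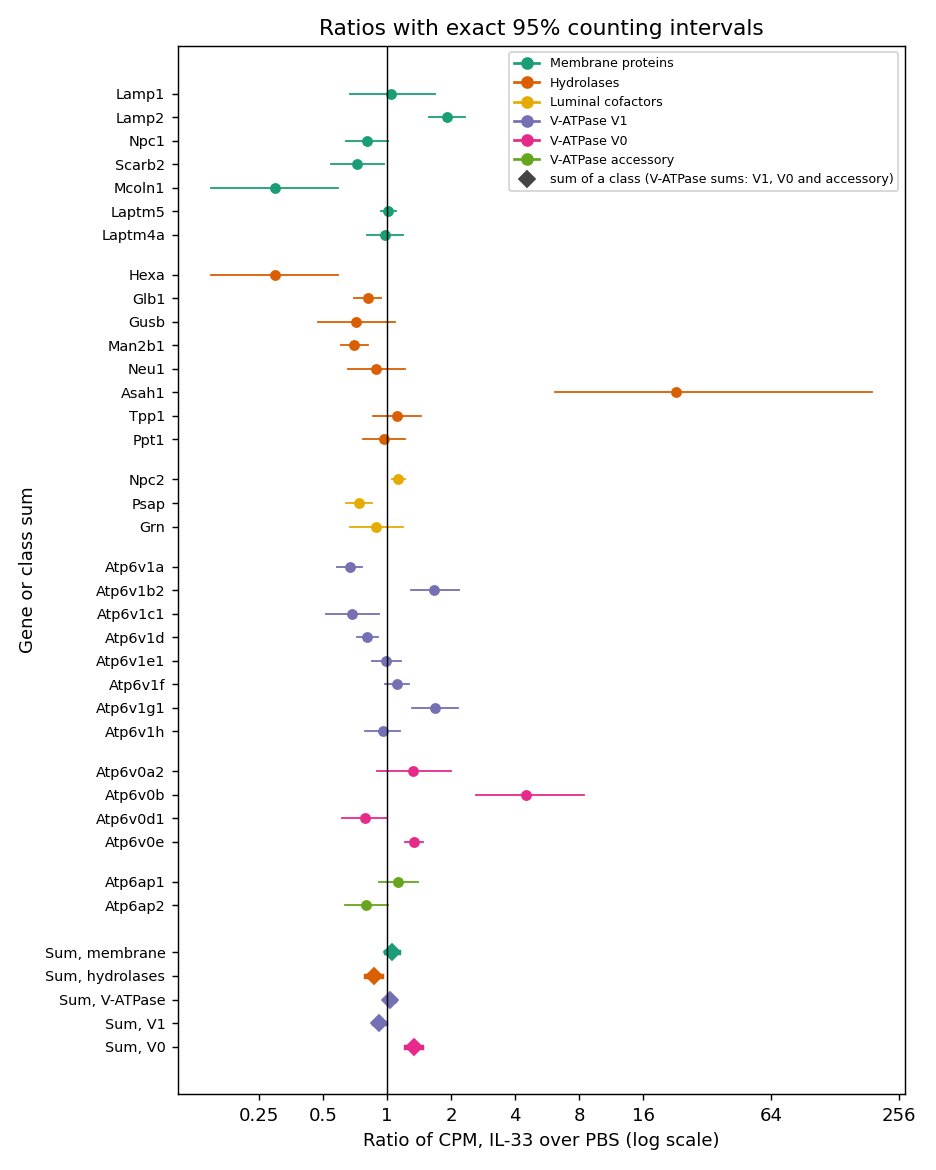
Ratio of CPM, IL-33 over PBS, on a log axis for the 32 genes over the floor with counts in both libraries, and for sums of classes (diamonds), with exact 95% counting intervals as lines. Asah1 at 22.8 and Atp6v0b at 4.52 lie farthest right, Mcoln1 and Hexa at 0.298 farthest left, and the sum lies at 0.863 for hydrolases and 1.33 for the V0 sector.

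Tfeb had 0 counts in both libraries, which allows up to 0.735 CPM with IL-33 and 1.91 CPM with PBS. Its relatives Mitf and Tfec were also at 0, while Tfe3 stood at 14.0 and 13.3 CPM. Genes of the TFEB and mTORC1 control list, which place TFEB in the cytosol or nucleus, were 16 in the table and 14 over the floor. Of these, 1 was at least 2-fold higher with IL-33 and 2 were lower, beside 15.5% and 16.3% of all genes over the floor, and the median log2 fold was -0.09. The 16 summed to a ratio of 0.934 (0.899 to 0.971). Mtor, the kinase itself, had 47 counts with IL-33 and 81 with PBS, for a ratio of 0.224 (0.153 to 0.324). Rragc, a GTPase that brings mTORC1 to the lysosome, had 239 and 207 counts, for a ratio of 0.445 (0.368 to 0.539). Both kinase and GTPase were lower, while the Ragulator scaffold genes Lamtor2 and Lamtor3 had ratios of 2.70 (1.22 to 7.06) and 1.84 (1.37 to 2.50).

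The V-ATPase genes summed to 7273 counts with IL-33 and 2724 with PBS, 1782 CPM against 1731 CPM, for a ratio of 1.03 (0.985 to 1.08). V0 genes summed to 597 CPM with IL-33 and 449 CPM with PBS, for a ratio of 1.33 (1.22 to 1.45). V1 genes summed to 1046 CPM against 1138 CPM, for a ratio of 0.919 (0.870 to 0.972), which TMM scaling moves to 0.9996 (0.946 to 1.06). Without Atp6v1a it was 0.979 (0.921 to 1.04), and without Atp6v1d 0.961 (0.901 to 1.03). The 2 accessory genes, Atp6ap1 and Atp6ap2, summed to 139 CPM against 144 CPM, for a ratio of 0.967 (0.827 to 1.13). Of the V0 and V1 counts together, V0 took 36.3% with IL-33 and 28.3% with PBS, an odds ratio of 1.45 (1.31 to 1.60) that does not depend on how the libraries are scaled. Leaving out any 1 subunit kept this odds ratio between 1.36 (without Atp6v1a) and 1.55 (without Atp6v0d1). Without both Atp6v0e and Atp6v0b, left out after their values were seen, it was 1.08 (0.877 to 1.33). All V0 sums and shares lack counts of the ring gene Atp6v0c, listed at 0 in both libraries and described below.

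Most of the V0 sum, as counted, was a single gene. Atp6v0e, which encodes the small e subunit of the membrane sector, had 1916 counts with IL-33 and 554 with PBS, 470 CPM against 352 CPM, for a ratio of 1.33 (1.21 to 1.47). Without it the other V0 genes summed to 127 CPM against 96.6 CPM, for a ratio of 1.32 (1.10 to 1.59). Atp6v0b, which encodes the c'' subunit of the proton-carrying ring (chromosome 4, 117884326 to 117887333), had 164 counts with IL-33 and 14 with PBS. This is 40.2 CPM against 8.90 CPM, for a ratio of 4.52 (2.62 to 8.45), and by library totals it was the only one of the 38 genes over the floor in both libraries to pass 2-fold. Atp6v0d1, the subunit that joins the ring to the stalk, went the other way, at 51.7 CPM against 66.1 CPM, for a ratio of 0.782 (0.616 to 0.999), or 0.851 (0.670 to 1.09) with TMM scaling. Without Atp6v0e and Atp6v0b, the remaining V0 genes with counts, Atp6v0a1, Atp6v0a2 and Atp6v0d1, summed to 87.0 CPM with IL-33 and 87.7 CPM with PBS, for a ratio of 0.992 (0.813 to 1.22). The higher V0 sum thus rests on Atp6v0e and Atp6v0b.

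The ring gene Atp6v0c, which encodes the main proton-carrying subunit, was listed at 0 in both libraries. Of the 25-base words in its longest transcript, 36.1% also occurred in the pseudogenes Atp6v0c-ps1 and Atp6v0c-ps2; the table has no row for the first and 0 counts for the second. Every working V-ATPase is known to need this subunit, and no level is read from its 0.

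Isoforms of the a subunit, which line the proton path, were all thinly counted. Atp6v0a2 had 117 counts with IL-33 and 34 with PBS, for a ratio of 1.33 (0.899 to 2.01). Atp6v0a1 had 27 and 0 counts, 3.47-fold higher against 3 counts with PBS and at least 2.63-fold higher by its counting interval. Tcirg1, the a3 isoform, had 38 and 18 counts. Atp6v0a2 held the largest share of their counts, 64.3% with IL-33 (exact binomial interval 56.9 to 71.2) and 65.4% with PBS (50.9 to 78.0). Per length, Atp6v0a2 took 51.2% with IL-33, ahead of Tcirg1 at 32.6%, while with PBS they took 49.1% and 50.9%.

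The V1 subunits were lower with IL-33 or did not differ beyond counting error, apart from 2 that were higher. Atp6v1a, the catalytic subunit that hydrolyses ATP (chromosome 16, 44085402 to 44139705), had 592 and 342 counts, 145 CPM against 217 CPM, for a ratio of 0.668 (0.583 to 0.765). Atp6v1b2, with which it alternates in the V1 ring, went the other way, at 78.4 CPM against 47.0 CPM, for a ratio of 1.67 (1.29 to 2.18). The 2 subunits that form this ring thus differed in opposite directions. Atp6v1d, part of the central stalk, stood at 249 CPM against 308 CPM, for a ratio of 0.807 (0.724 to 0.901). Atp6v1c1, which links the stalks and the membrane sector, stood at 33.6 CPM against 48.9 CPM, for a ratio of 0.686 (0.515 to 0.919). Atp6v1e1, Atp6v1f and Atp6v1h had ratios between 0.953 and 1.11, and their intervals held 1, while TMM scaling takes Atp6v1f to 1.21 (1.06 to 1.38).

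The G subunit of the outer stalks showed the widest difference within the V-ATPase. Atp6v1g1, the common isoform, had 356 counts with IL-33 and 82 with PBS, 87.2 CPM against 52.1 CPM, for a ratio of 1.67 (1.31 to 2.16). Atp6v1g2, known from neurons (chromosome 17, 35233660 to 35238767), had 0 and 42 counts, 36.3-fold lower against 3 counts with IL-33. By its counting interval Atp6v1g2 was at least 28.2-fold lower. It made up 0% of the counts of this pair with IL-33, with an upper limit of 1.03%, and 33.9% with PBS (exact binomial interval 25.6 to 42.9). An exon of Nfkbil1 on the opposite strand covers 7.7% of the exonic bases of Atp6v1g2; Nfkbil1 itself had 1 and 4 counts. Of the 25-base words of Atp6v1g1, 25.7% occurred in other annotated transcripts, against 0.0% for Atp6v1g2. The G3 isoform gene, Atp6v1g3, had 0 counts with IL-33 and 22 with PBS, a ratio of at most 0.0704 by its counting interval.

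**Figure D3:**
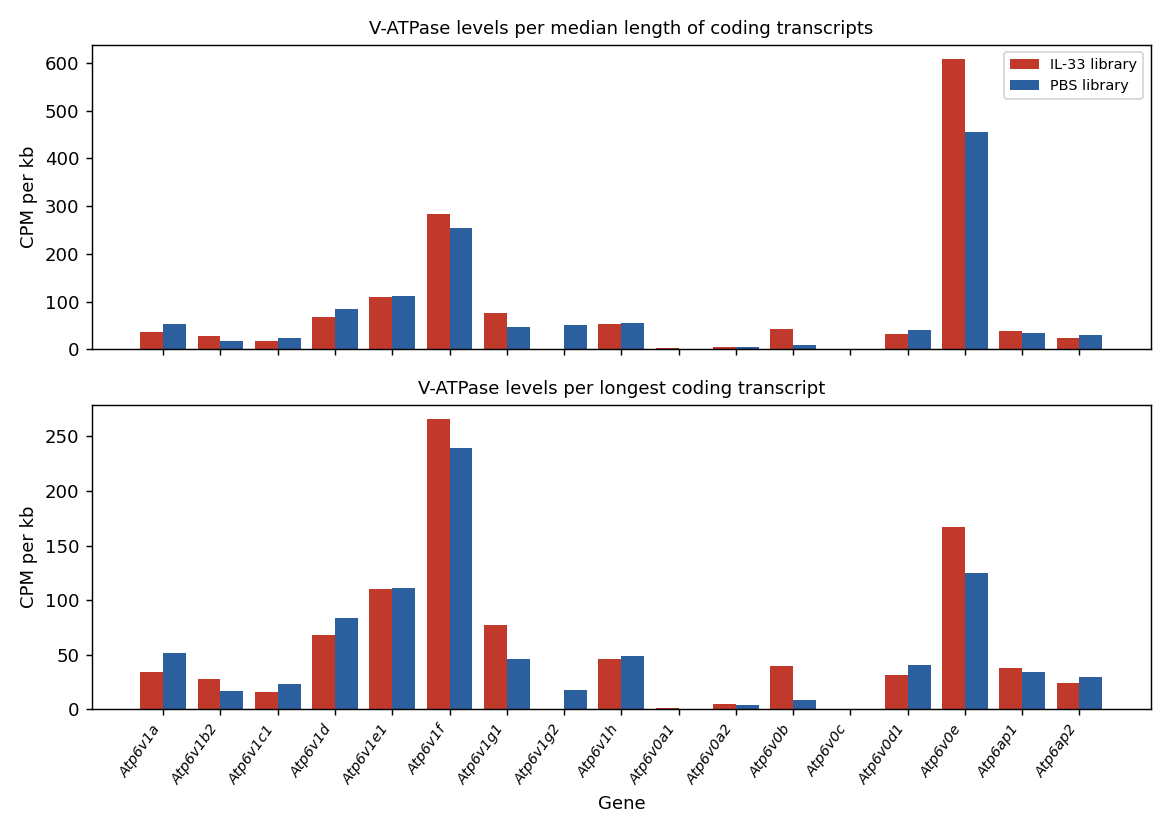
CPM per kb of the 17 V-ATPase genes with IL-33 (left bar of each pair) and the PBS library (right bar), using the median length of the coding transcripts (upper panel) or the longest (lower panel). Atp6v0e, at 608 and 456 CPM per kb, leads by the median length and falls behind Atp6v1f by the longest, while the a subunits lie near the bottom in both panels.

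Per length, the V-ATPase subunits spanned a wide range in each library. With the median length of coding transcripts, Atp6v0e was at 608 CPM per kb with IL-33 and 456 with PBS, followed by Atp6v1f at 284 and 255 and Atp6v1e1 at 110 and 111. Transcripts of Atp6v0e differ in length, from a median of 772 to 2812 nt for the longest. With the longest it was at 167 CPM per kb with IL-33 and 125 with PBS, below Atp6v1f at 265 and 239. Atp6v1a stood at 35.7 and 53.5 CPM per kb and Atp6v1b2 at 27.8 and 16.6, so the catalytic subunit was above its partner in both libraries. Of the genes with counts, Atp6v0a1 was lowest with IL-33 at 1.70 CPM per kb and Atp6v0a2 with PBS at 4.04. Over the 15 V-ATPase genes with counts in each library, the median was 38.6 CPM per kb with IL-33 and 45.9 with PBS. These are not the same 15 genes, so the medians do not compare like with like. Atp6v0a1 had counts only with IL-33 and Atp6v1g2 only with PBS.

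The accessory proteins did not differ beyond counting error. Atp6ap1, which helps to assemble the V0 sector, stood at 83.8 CPM with IL-33 and 74.3 CPM with PBS, for a ratio of 1.13 (0.911 to 1.40). Atp6ap2, also called the prorenin receptor, stood at 55.6 CPM against 69.9 CPM, for a ratio of 0.796 (0.631 to 1.01).

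Set against each other by comparisons that do not depend on scaling, the 9 hydrolases here were lower than both other classes with IL-33. Without Man2b1 both intervals held 1, and without Lamp2 that against membrane proteins did. Hydrolases took 36.5% of the counts of hydrolases and membrane proteins together with IL-33 and 41.1% with PBS, an odds ratio of 0.822 (0.741 to 0.912). Against V-ATPase genes they took 21.3% and 24.4%, an odds ratio of 0.838 (0.765 to 0.919). Membrane proteins against V-ATPase genes had an odds ratio of 1.02 (0.942 to 1.10). Leaving out any 1 gene kept the first odds ratio between 0.775 (without Asah1) and 0.906 (without Lamp2), and the second between 0.790 (without Asah1) and 0.915 (without Man2b1). The interval of the first came to hold 1 without Lamp2 (0.814 to 1.01) or Man2b1 (0.799 to 1.01). That of the second came to hold 1 without Man2b1 (0.823 to 1.02). By library totals, the 27 further hydrolases described below summed to a ratio of 1.01 (0.959 to 1.07). The cathepsin list summed to 0.991 (0.947 to 1.04), so neither list was lower as a sum beyond counting error. By the median over genes at the floor, the log2 fold was -0.24 for 8 hydrolases, -0.04 for 7 membrane proteins and 0.07 for 16 V-ATPase genes. Transcript length moved with the fold over all genes: among those with a mean of at least 50 CPM, the median log2 fold was 0.10 among genes with the shortest transcripts and -0.19 among those with the longest, of 5 equal groups by length. Median lengths were 2474 nt for the hydrolases, 2206.5 nt for membrane proteins and 1811 nt for V-ATPase genes (1309 nt for V0). With the median of its own length group taken off each gene, the class medians were -0.16 for hydrolases, 0.04 for membrane proteins and 0.03 for V-ATPase genes. For the 5 V0 genes at the floor the median was 0.59 with this step and 0.41 without it, while Atp6v0e itself stood at 0.31 with it and 0.41 without. The members within each class spread far wider than these medians, from -1.54 to 3.72 among the hydrolases, from -1.54 to 0.93 among the membrane proteins and from -4.79 to 2.93 among the V-ATPase genes. Counting intervals lay wholly above 1 for 8 of the 34 genes and wholly below 1 for 11, which is 1 and 3 hydrolases, 1 and 2 membrane proteins, 1 and 1 luminal cofactors and 5 and 5 V-ATPase genes. Among all 9005 genes, 28.6% had an interval above 1 and 35.1% below, so these shares lie near the background.

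**Figure D4:**
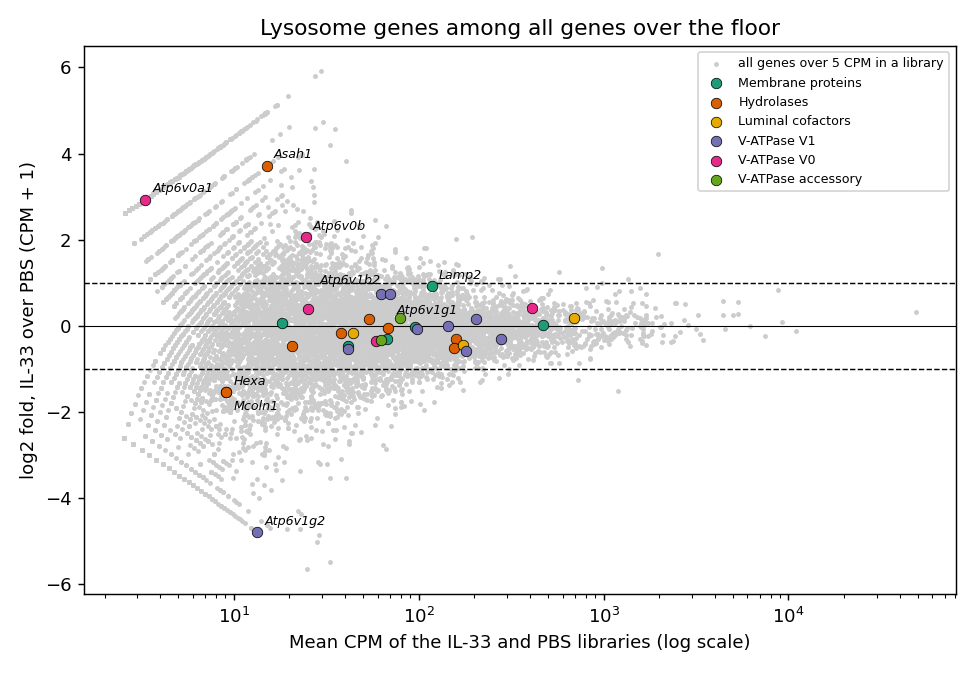
log2 fold of IL-33 over PBS (CPM + 1) against the mean CPM of both libraries (log axis) for the 34 genes over the floor, coloured by role, among all 9005 genes over 5 CPM in a library (grey); dashed lines mark 2-fold. Hexa and Mcoln1 share 1 point, and the genes beyond 2-fold lie at low mean levels, where many of the grey genes do too.

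The genes with the E-box core did not share a direction. Of the 8, 7 were over the floor, with a median log2 fold of -0.30 and a range from -1.54 (Mcoln1) to 2.06 (Atp6v0b). The 20 genes over the floor whose promoters lacked it had a median of -0.11 and a range from -4.79 to 2.93. Of the 4 with TCACGTGA, Mcoln1, Atp6v0d1 and Atp6v1a had ratios below 1 and Atp6v0e a ratio of 1.33.

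Further lysosomal genes, from lists that left out the 38, also showed no common direction. Of 27 further hydrolases, 25 were over the floor, and 4 were at least 2-fold higher with IL-33 and 4 lower, beside 15.5% and 16.3% of all genes over the floor, so that both shares lie near the background. The median log2 fold was 0.12 and the summed ratio 1.01 (0.959 to 1.07). This list holds Gm2a, an activator protein and no hydrolase, at 390 CPM with IL-33 and 428 CPM with PBS. Without it, left out after its values were seen, the summed ratio was 1.08 (1.004 to 1.16). Ids, an iduronate sulfatase, had 89 counts with IL-33 and 0 with PBS, at least 9.11-fold higher by its counting interval. Galns, a galactosamine sulfatase, had 73 and 0, at least 7.44-fold higher in the same way. Galc, the galactosylceramidase, had 41 and 1 counts, for a ratio of 15.8 (2.68 to 640), and Naglu, a glucosaminidase, had 4 and 17, for a ratio of 0.0907 (0.0222 to 0.278). Of the 18 further membrane proteins over the floor, 1 was higher and 2 lower, beside 15.5% and 16.3% of all genes. Their median log2 fold was -0.27. The whole list of 24 summed to a ratio of 1.08 (1.02 to 1.15), on the other side from its median. Tmem106b, a lysosomal membrane protein, had a ratio of 2.05 (1.47 to 2.92) and the cobalamin transporter gene Lmbrd1 1.91 (1.57 to 2.34). The sialic acid exporter gene Slc17a5 had 0.291 (0.188 to 0.447), and the amino acid sensor gene Slc38a9 had 0.400 (0.225 to 0.714).

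Cathepsins, the lysosomal proteases, had 12 of 14 members over the floor with legumain counted among them, 3 higher and 1 lower beside the same 15.5% and 16.3% of all genes, and a summed ratio of 0.991 (0.947 to 1.04). Ctsd, an aspartic protease, stood at 191 CPM with IL-33 and 85.8 CPM with PBS, for a ratio of 2.23 (1.85 to 2.69), and Ctso had a ratio of 2.13 (1.62 to 2.86). Ctse had 22 and 0 counts, at least 2.11-fold higher by its counting interval, and Ctsw 6 and 12. Genes that sort hydrolases by mannose 6-phosphate did not differ beyond counting error as a sum, at a ratio of 0.978 (0.931 to 1.03), with 0 of 10 higher and 1 lower at 2-fold beside 15.5% and 16.3% of all genes. That gene was Gnptab, which encodes subunits of the enzyme that starts the tag, with 0 and 13 counts (ratio at most 0.127). Gnptg, which encodes its remaining subunit, had a ratio of 1.66 (1.31 to 2.13), and the retromer genes Vps35 and Vps26a had ratios of 1.57 (1.30 to 1.89) and 0.677 (0.570 to 0.805). Of the V-ATPase genes and assembly factors outside the 38, 7 of 12 were over the floor, 1 higher and 2 lower beside that background of 15.5% and 16.3%. Atp6v0d2, the d2 isoform known from osteoclasts, had 90 counts with IL-33 and 0 with PBS, at least 9.22-fold higher by its counting interval. The assembly factor gene Ccdc115 had 109 and 134 counts, for a ratio of 0.314 (0.241 to 0.407), and Rnasek, which encodes a V-ATPase-associated protein, had a ratio of 1.69 (1.35 to 2.13).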

How the data were processed

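Per the labels' protocols, double-sorted Treg cells went into Trizol, cDNA was made from poly(A) RNA, amplified and cut by a transposon, and 25 bases were read from each end. The authors deposited raw counts, whole numbers per gene symbol; per the submitters' processing notes, TopHat2 2.0.10, Cufflinks 2.2.1 and mm10 were used, while the sources used here do not name the counting program, annotation or strand handling. Reads shared by overlapping or near-identical genes may have been split or dropped.

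CPM were computed from the library totals. The genes, classes and lists were chosen with earlier results of these data known. All 38 members are named, with the 4 genes of each further list farthest from 0; any other gene named, markers at 0 included, was chosen after its values were seen. Ratios carry exact conditional (Clopper-Pearson) 95% intervals. With 0 counts in a library, a limit of that interval is given. A fold against 3 counts leaves out the counting error of the other library. Lengths and positions come from GENCODE M21 (GRCm38), where 20929 symbols matched directly, 1918 by an older name and 490 not; promoters come from RefSeq (GRCm38.p6). Words of 25 bases were matched on both strands to all annotated transcripts. Alternatives were scalings by edgeR 4.0.16 (TMM) and DESeq2 1.42.0, totals without the 50 most abundant genes, pseudocounts, floors, a 1.5-fold threshold and transcript length. Python 3.11.15, numpy 2.4.6, scipy 1.17.1, pandas 2.3.3, matplotlib 3.10.9 and R 4.3.3 were used, and the computation was tested on simulated data.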

Additional observations from a re-analysis of the deposited data

How the results depend on the processing

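TMM scaling adds 0.12 and DESeq2 size factors 0.11 to every log2 ratio, and less to the folds of low genes on CPM plus 1, so the direction of a gene or class within that distance of 0 is not settled. Summed ratios under TMM and DESeq2 scaling were 1.14 and 1.14 for membrane proteins, 1.12 and 1.11 for V-ATPase genes, 1.12 and 1.11 for luminal cofactors, 0.9996 and 0.995 for V1 genes, and 1.10 (1.099) and 1.09 for all members. That of hydrolases under TMM was 0.939, and under every scaling it stayed below 1 and that of V0 genes above 1, though with TMM and DESeq2 scaling the interval of hydrolases held 1. With totals without the 50 most abundant genes, all members summed to 1.05. Without the gene with the most counts, the sum was 0.952 for V-ATPase genes and 0.765 for luminal cofactors. Without genes that share 10 percent or more of their 25-base words, an alternative added after seeing the data, V1 genes summed to 0.834. Without Atp6v0e and Atp6v0b (also added), V0 genes summed to 0.992. At 1.5-fold, 6 members were higher and 3 lower, beside 23.5% and 27.4% of all genes over the floor. With the floor in both libraries (also added), 1 was higher and 0 lower; with a floor of 20 CPM, 1 was lower; and without members overlapped by another gene (added), 1 was lower. Over all alternatives the median log2 fold ran from -0.24 to -0.12 for hydrolases, from -0.04 to 0.08 for membrane proteins, from 0.40 to 1.24 for V0 genes and from -0.04 to 0.19 for V-ATPase genes. No fold of a member past 2-fold changed its sign under the 6 scaling, pseudocount and length alternatives. No paired analysis was possible because each group had 1 library, and for the same reason none could be left out. Depth limits the genes with few counts in the PBS library, Asah1, Atp6v0b and Atp6v0a1 among them.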
